A study of Mus musculus with 2 samples.

Results

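The insulin-like growth factor (IGF) system was examined as 10 listed genes, chosen by symbol and matched to Ensembl identifiers, out of 43346 mouse genes in the deposited tables. They are the ligands Igf1 and Igf2, the receptors Igf1r and Igf2r, and the secreted binding proteins Igfbp2, Igfbp3, Igfbp4, Igfbp5, Igfbp6 and Igfbp7. All 10 symbols were matched, and the rule of choice uses no measured value.

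Total RNA from kidneys of healthy B6NCrl mouse embryos at embryonic day 15.5 was sequenced, and embryonic kidney was the only group. It had 2 biological replicate libraries, each from pooled organs of both sexes with 10 ng of RNA as input. Kidneys of 78 embryos went into replicate 1 and kidneys of 62 embryos into replicate 2. The libraries held 36244861 and 39415002 expected counts, which are estimated reads per gene that need not be whole. There was no treatment and no other tissue, so the data allow comparisons between genes, between transcripts and between the 2 pools.

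IGF1 and IGF2 are small secreted hormones that signal through IGF1R, a cell-surface tyrosine kinase, and drive growth and survival of fetal tissues. IGF2R, which is also the cation-independent mannose 6-phosphate receptor, takes IGF2 up for breakdown in lysosomes. Binding proteins hold the ligands outside the cell and release them, often after cleavage by proteases. In the mouse, Igf2 is expressed from the paternal copy and Igf2r mainly from the maternal copy in most fetal tissues, and Igf2 is transcribed from several promoters.

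The promoters of Igf2 are shown because its transcripts start at distant sites, whose shares of the reads are given below. Each sequence runs 5′ to 3′ on the gene's strand, from upstream of a RefSeq start site to just past it in build GRCm38.p6, taken from the RefSeq promoter table, and the starts are numbered along the direction of transcription. The windows lie on the minus strand at chr7:142666767-142667066, chr7:142661222-142661521, chr7:142658755-142659054 and chr7:142657447-142657746, in the order of the lines. Capitals mark matches on either strand to GGGCGG (or its complement CCGCCC) and to CCAAT (or its complement ATTGG).
Igf2 start 1: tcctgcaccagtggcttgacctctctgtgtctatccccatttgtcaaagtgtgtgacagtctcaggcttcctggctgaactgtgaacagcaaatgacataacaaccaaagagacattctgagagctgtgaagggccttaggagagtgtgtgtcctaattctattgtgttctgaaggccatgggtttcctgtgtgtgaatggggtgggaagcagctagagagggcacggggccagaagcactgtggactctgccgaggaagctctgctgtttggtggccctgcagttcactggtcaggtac
Igf2 start 2: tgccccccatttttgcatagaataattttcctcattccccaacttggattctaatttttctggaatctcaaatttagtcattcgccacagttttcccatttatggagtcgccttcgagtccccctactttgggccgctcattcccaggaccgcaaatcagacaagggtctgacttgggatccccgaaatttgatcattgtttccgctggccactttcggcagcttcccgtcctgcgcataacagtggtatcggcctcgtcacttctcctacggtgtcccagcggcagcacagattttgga
Igf2 start 3: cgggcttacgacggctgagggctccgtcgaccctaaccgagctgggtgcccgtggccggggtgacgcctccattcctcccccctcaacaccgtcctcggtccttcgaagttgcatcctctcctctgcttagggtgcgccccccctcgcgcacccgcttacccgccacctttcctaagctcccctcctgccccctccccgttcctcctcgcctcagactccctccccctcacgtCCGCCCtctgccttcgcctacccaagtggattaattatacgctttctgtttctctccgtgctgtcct
Igf2 start 4: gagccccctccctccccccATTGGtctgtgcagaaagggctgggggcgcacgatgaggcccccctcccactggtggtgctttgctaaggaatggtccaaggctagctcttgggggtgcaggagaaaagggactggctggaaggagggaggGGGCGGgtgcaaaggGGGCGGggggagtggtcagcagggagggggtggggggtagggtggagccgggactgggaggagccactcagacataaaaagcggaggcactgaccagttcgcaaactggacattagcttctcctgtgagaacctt

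None of the 4 windows held TATAAA, the third motif searched on both strands, and the motif matches did not overlap each other. The windows at starts 1 and 2 held no match to any of the 3 motifs. The window at start 3 held 1 GGGCGG, and that at start 4 held 2 GGGCGG and 1 CCAAT. GC content was 52.3% and 49.7% at starts 1 and 2, against 64.7% and 63.3% at starts 3 and 4. Over all 10 genes there were 14 RefSeq windows, of which 6 held GGGCGG, 3 held CCAAT and 2 held TATAAA. Of 32851 mouse promoter windows of the same length, 35.7% held GGGCGG, 37.4% held CCAAT and 13.6% held TATAAA. The TATAAA matches were in Igfbp4, at 28 to 23 bases before the start, and on the opposite strand in Igfbp6. These matches describe letters in the windows and not binding.

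All 10 genes were detected in both libraries, each at no less than 1 TPM, where TPM is transcript abundance adjusted for length and scaled to a fixed library sum. The same was true of 34.9% of all mouse genes and 62.3% of protein-coding genes. The gene levels fell into 3 ranges. Igf2, Igfbp4 and Igfbp7 stood between 277 and 564 TPM, Igfbp2, Igfbp5 and Igfbp3 between 67.8 and 121 TPM, and Igf1, Igf2r, Igfbp6 and Igf1r between 20.1 and 31.0 TPM. Summed over roles, gene TPM was 591 and 589 for ligands, 45.4 and 51.4 for receptors, and 1090 and 1132 for binding proteins in replicates 1 and 2. In this tissue RNA, fewer cells of a type and less RNA per cell cannot be told apart.

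**Figure D1:**
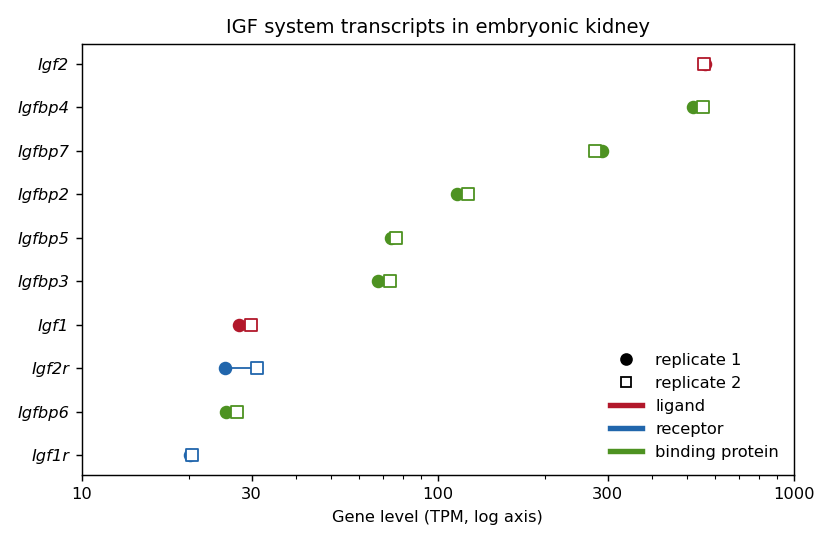
Gene level of the 10 IGF system genes on a log axis in TPM, with replicate 1 as filled circles and replicate 2 as open squares, coloured by role. Igf2 and Igfbp4 lie at the top at 520 to 564 TPM and Igf1r at the bottom at 20.1 and 20.4 TPM, and the gap between the pools is widest for Igf2r.

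Igf2, the main fetal ligand (ENSMUSG00000048583.12; mm10 chromosome 7, 142650766 to 142666816, minus strand), had 563.6 TPM in replicate 1 and 559.3 TPM in replicate 2. The mean gene level was 561 ± 3.04 TPM (SD, n = 2) and ranked 205 among the 13387 protein-coding genes detected in both libraries. The values rest on 16743 and 18153 expected counts. Igf2 was level between the pools, with a log2 TPM ratio of -0.01 (replicate 2 over replicate 1).

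Igf1, the ligand that depends on growth hormone after birth (chromosome 10, 87858265 to 87937042, plus strand), had 27.7 TPM in replicate 1 and 29.9 TPM in replicate 2. Its expected counts were 3133 and 3936, and its mean gene level was 28.8 ± 1.59 TPM (n = 2). Igf2 exceeded Igf1 20.4-fold in replicate 1 and 18.7-fold in replicate 2 by gene TPM, a ratio that was smaller on both other length scales given below. By gene TPM Igf2 held 95.3% and 94.9% of the ligands' summed TPM.

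Igf1r, the signalling receptor (chromosome 7, 67952827 to 68233668, plus strand), had 20.1 and 20.4 TPM in replicates 1 and 2, on 2163 and 2362 expected counts. Its level was the lowest of the 10 genes in both libraries. The deposited tables hold 1 Igf1r transcript of 4489 nt, against 11409 nt for the same identifier in the later GENCODE annotation M21. Reads in the added stretch were therefore not part of this value.

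Igf2r, the receptor that clears IGF2 (chromosome 17, 12682406 to 12769664, minus strand), had 25.3 TPM in replicate 1 and 31.0 TPM in replicate 2. These TPM values rest on 5179 and 6378 expected counts, a ratio of 1.13 relative to total counts, with an exact Clopper-Pearson interval at 95% of 1.09 to 1.17 that covers counting error only. Igf2r had the widest TPM ratio of the 10 genes, 1.23-fold or 0.30 on the log2 scale. It stayed under the spread between the pools at its abundance, 0.37 on the log2 scale, which is the 95th percentile of the absolute ratio over genes at 10 to 30 TPM. When TPM was rescaled over nuclear genes, the Igf2r ratio was 0.31 and exceeded its limit of 0.28. That rescaling raised its mean level from 28.1 to 31.2 TPM, out of the range of 10 to 30 TPM. The limit for genes at 10 to 30 TPM was 0.39 in that setting, above the Igf2r ratio. Igf2r also overlaps 28354 bases of the antisense RNA gene Airn, and the sources do not give whether counting used strand. Whether reads of Igf2r and Airn were told apart in their overlap is therefore not known.

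Igfbp4, a binding protein cleaved by the protease PAPP-A (chromosome 11, 99041244 to 99054392, plus strand), had 520.4 and 556.6 TPM in replicates 1 and 2. It rested on 25701 and 30609 expected counts, and its mean gene level was 538 ± 25.6 TPM (n = 2). Igfbp4 held 47.7% and 49.2% of the summed binding-protein TPM.

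Igfbp7, a distant relative that binds IGFs weakly (chromosome 5, 77349240 to 77408041, minus strand), had 289.3 and 277.3 TPM in replicates 1 and 2. Its mean gene level was 283 ± 8.47 TPM (n = 2), or 26.5% and 24.5% of binding-protein TPM. Of the 6 binding proteins, only Igfbp7 had the lower TPM in replicate 2, by -0.06 on the log2 scale, which was under its limit of 0.25.

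Igfbp2, a fetal binding protein able to bind integrins (chromosome 1, 72824503 to 72852474, plus strand), had 113.1 TPM in replicate 1 and 121.5 TPM in replicate 2. Igfbp5, which binds extracellular matrix and is its neighbour (chromosome 1, 72857932 to 72874884, minus strand), had 74.1 and 76.2 TPM in replicates 1 and 2. The convergent genes are 5457 bases apart, and the level of Igfbp2 exceeded that of Igfbp5 beyond replicate error in both libraries. Igfbp3, the main IGF carrier of adult blood (chromosome 11, 7206086 to 7213923, minus strand), had 67.8 and 73.4 TPM in replicates 1 and 2. Its level did not differ from that of Igfbp5 beyond replicate error. Igfbp6, which prefers IGF2 (chromosome 15, 102144362 to 102149511, plus strand), had 25.4 and 27.2 TPM on 631 and 727 expected counts in replicates 1 and 2, the fewest counts of the 10 genes.

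The order of the 10 genes was tested pair by pair. A pair was called different when its log2(TPM + 1) difference had the same sign in both libraries and exceeded, in both, the limit set by replicate error for the less abundant gene of the pair. By this rule 38 of 45 pairs differed, against 81.1% of all pairs of detected genes. The pairs that did not differ were Igf2 and Igfbp4, Igfbp5 and Igfbp3, and 5 of the pairs among Igf1, Igf2r, Igfbp6 and Igf1r. Within those 4 genes only Igf1 against Igf1r passed, with a level difference of 0.48 on the log2 scale. Along the order, 4 of 9 neighbouring pairs differed: Igfbp4 above Igfbp7, Igfbp7 above Igfbp2, Igfbp2 above Igfbp5, and Igfbp3 above Igf1.

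The order at the top and near the bottom depended on how length was taken into account. When the expected count of a gene was divided by the length of its longest protein-coding transcript, an alternative chosen after seeing the data, Igfbp4 led at 194 ± 12.5, in counts per kilobase scaled to library size, followed by Igfbp7 at 160 ± 5.98 and Igf2 at 97.7 ± 0.206 (n = 2). Igfbp4 and Igfbp7 did not differ beyond replicate error in both libraries on that scale (mean log2 difference 0.27, limit 0.24). Igf2 lay below Igfbp4 by a log2 difference of -0.98 and below Igfbp7 by -0.71. The length used for Igf2 was that of Igf2-205 (4722 nt), which held 26.1% and 25.7% of its counts in replicates 1 and 2. Reads of shorter Igf2 forms were thus divided by a longer length, which lowers Igf2 on this scale. For Igfbp4 the transcript used, Igfbp4-201, held 81.5% and 82.6% of counts. Igf1 moved to the bottom at 13.2 ± 1.35, beside Igf1r at 13.3 ± 0.0392. Igf2 lay above Igf1 by a log2 difference in level of 2.80 on that scale and 3.55 by protein-coding TPM, against 4.24 by gene TPM. The sums over roles in replicates 1 and 2 were 110.1 and 112 for ligands, 29.4 and 31.6 for receptors, and 529 and 547 for binding proteins. When TPM was summed over protein-coding transcripts only, also chosen after seeing the data, Igf2 stood at 349 ± 26.5 TPM, Igfbp7 at 283 ± 8.48 TPM and Igfbp4 at 257 ± 14.0 TPM, the last 2 not differing beyond replicate error. Igfbp2, Igfbp5 and Igfbp3 kept ranks 4, 5 and 6 on all 3 scales.

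**Figure D2:**
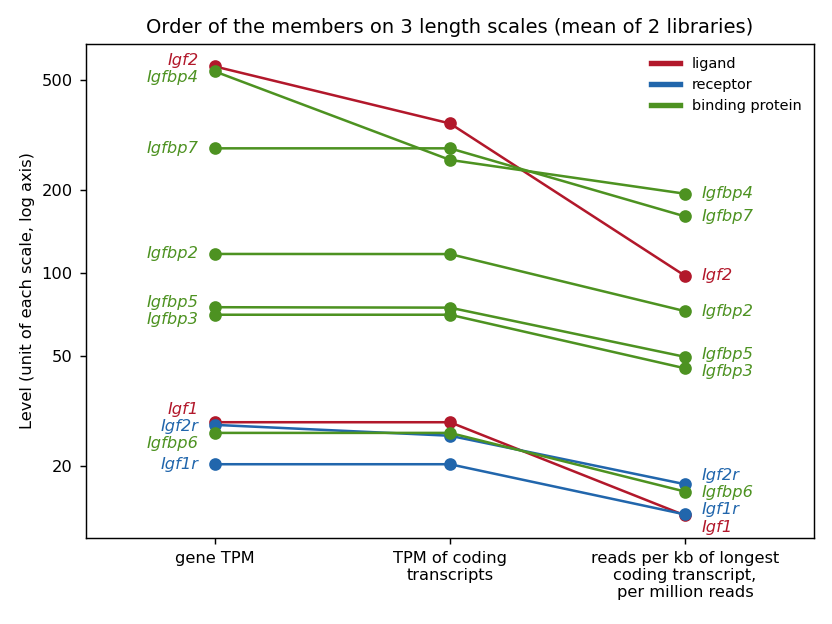
Mean level of each gene over the 2 libraries on 3 scales, joined by a line per gene and coloured by role, on a log axis: gene TPM, TPM of protein-coding transcripts, and expected counts per kilobase of the longest protein-coding transcript scaled to library size. The Igf2 line drops from rank 1 at 561 TPM to rank 3 at 97.7 on the last scale, while Igfbp2, Igfbp5 and Igfbp3 keep their order.

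Short transcripts held a large part of the TPM of 2 members at the top of the order. Igf2 had 9 annotated transcripts. Igf2-203, a coding form of 650 nt from start 1, held 43.4% of the gene's TPM in replicate 1 and 37.4% in replicate 2, but 19.7% and 16.8% of its expected counts. Only 41 of its bases lie in no other Igf2 transcript. Igf2-208, a non-coding processed transcript of 958 nt whose annotated start is 4466 bases from the nearest RefSeq start, held 31.3% and 38.0% of TPM and 22.1% and 26.5% of counts in replicates 1 and 2. Every base of Igf2-208 is shared with other Igf2 transcripts.

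The longer Igf2 forms held the larger part of the reads. Igf2-202, a coding form of 2503 nt from start 4, held 13.8% and 13.7% of TPM but 27.3% and 26.7% of counts in replicates 1 and 2. Like Igf2-208, it has no base of its own. Igf2-205, a coding form of 4722 nt that starts 685 bases from start 3 and has 1126 bases of its own, held 6.84% and 6.85% of TPM but 26.1% and 25.7% of counts. Together the 5 Igf2 transcripts under 1000 nt held 78.3% and 78.5% of the gene's TPM on 43.5% and 44.6% of its counts.

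Grouped by the start sites printed above, with each transcript given to a RefSeq start within 1000 bases, the share of Igf2 expected counts was 19.7% and 16.8% at start 1 in replicates 1 and 2. It was 2.49% and 2.03% at start 2, 26.1% and 25.7% at start 3, and 29.6% and 29.0% at start 4. Transcripts near none of the starts held the other 22.2% and 26.5%. By TPM the order of the starts was different, with 43.4% and 37.4% at start 1 and 14.6% and 14.4% at start 4. Start 1 rests on Igf2-203 alone and start 4 mostly on Igf2-202, forms with few or no bases of their own. Their shares therefore depend on how reads were shared out among transcripts. Start 3 rests on Igf2-205 alone, whose annotated start lies outside the printed window.

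The share of Igf2-208 was the only one of 15 testable transcript shares of these genes that differed between the pools beyond replicate error. It was higher in replicate 2 by 6.71 percentage points, against a limit of 6.41 points, the 95th percentile of the same difference in genes at 100 TPM or more. Over all genes 5% of transcript shares passed, which the rule fixes. The leading transcript by TPM was the same in both libraries for 7 of the 8 members with several transcripts, against 91.6% of genes, and the exception was Igf2, led by Igf2-203 in replicate 1 and by Igf2-208 in replicate 2. By expected count Igf2-202 led in both libraries, and the leader was the same for 8 of 8 members, against 93.9% of genes.

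Igfbp4 showed the same contrast between scales. Igfbp4-203, a non-coding processed transcript of 785 nt with 28 bases of its own, held 52.4% and 51.9% of the gene's TPM in replicates 1 and 2, but 17.8% and 17.1% of its counts. The full coding form of 3831 nt, Igfbp4-201, held 44.0% and 46.1% of TPM but 81.5% and 82.6% of counts. Igf2 and Igfbp4 were the 2 members whose leader by count differed from the leader by TPM in both libraries, as it did in 8.64% of 10209 genes with several transcripts.

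**Figure D3:**
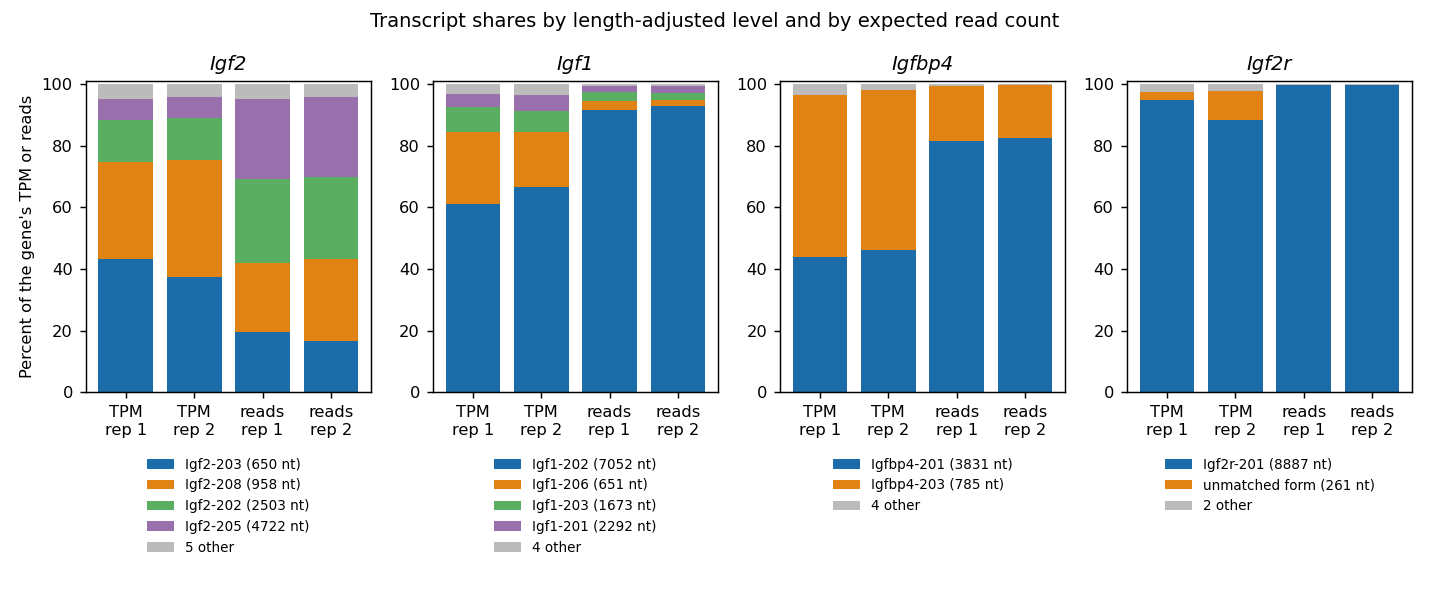
Transcript shares of Igf2, Igf1, Igfbp4 and Igf2r as percent of the gene's TPM (left pair of bars) and of its expected read count (right pair) in each library, with transcripts under 5% in all 4 bars pooled as other. The short Igf2-203 and Igf2-208 fill 74.6% and 75.4% of the TPM bars but 41.8% and 43.3% of the read bars, and Igfbp4-201 fills 44.0% and 46.1% of the TPM bars but 81.5% and 82.6% of the read bars.

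Igf1 transcripts differ in their leader exon and at the end that encodes the E peptide, a tail removed from the hormone. An exon of 52 bases before the last exon marks the form known as Eb in rodents, and transcripts that skip it encode the Ea form. Igf1-201 carries a longer form of that exon and was kept apart from both sets. The sequences, from GENCODE M21 transcripts on GRCm38, show the exon in capitals (chr10:87915298-87915349, plus strand) with 15 bases of each neighbouring exon, and the junction that skips it.
Igf1-203: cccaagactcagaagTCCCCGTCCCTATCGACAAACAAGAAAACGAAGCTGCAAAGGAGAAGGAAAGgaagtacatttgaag
Igf1-202: cccaagactcagaaggaagtacatttgaag

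Igf1-202, a form of 7052 nt without the exon, held 61.1% and 66.7% of Igf1 TPM and 91.7% and 92.9% of its counts in replicates 1 and 2. The 3 transcripts with the 52-base exon together held 31.6% and 24.7% of TPM, but only 5.61% and 4.18% of counts. The 4 transcripts that skip it held 64.2% and 70.3% of TPM and 92.4% and 93.6% of counts, and Igf1-201 held 4.16% and 5.05% of TPM and 1.96% and 2.22% of counts. Most of the TPM of the 3 transcripts with the 52-base exon came from Igf1-206. It is a model of 651 nt with no base of its own, on 87.2 and 76.6 expected counts. Transcripts whose coding part begins in the class 1 leader exon held 71.0% and 74.8% of Igf1 TPM and 95.02% and 95.44% of counts. Those of class 2 held 29.0% and 25.2% of TPM and 4.98% and 4.56% of counts. Igf1-202 belongs to class 1 and skips the 52-base exon, and 5431 of its 7052 bases lie in no other Igf1 transcript. Reads in that stretch count toward both of these sets, so the count shares depend on which transcript model carries it. None of the Igf1 shares differed between the pools beyond the limit of 13.5 percentage points.

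Igf2r was carried by Igf2r-201 (8887 nt), with 94.95% of TPM in replicate 1 and 88.38% in replicate 2. A transcript of 261 nt that M21 no longer lists held 2.38% and 9.55% of Igf2r TPM, on 2.38 and 12.7 expected counts. Its share was higher in replicate 2 by 7.17 points, under the limit of 13.5. Protein-coding Igf2r TPM was 24.0 and 27.4 in replicates 1 and 2, a smaller difference than that of the gene as a whole. Igfbp2, Igfbp3, Igfbp5 and Igfbp7 each had 1 transcript with at least 96.7% of TPM in both libraries, and Igf1r and Igfbp6 had 1 transcript each.

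No member differed between the pools beyond replicate error (0 of 10), against 5.01% of 15108 detected genes. The absolute log2 TPM ratio was at most 0.12 in the 9 members other than Igf2r. By sign alone 8 of 10 were higher in replicate 2, as were 54.3% of detected genes. The exact counting interval of the count ratio excluded 1 for 6 of 10 members and covered it for Igf2, Igf1r, Igfbp5 and Igfbp6. It excluded 1 for 37.9% of detected genes, a share not matched for abundance. The widest such ratio was that of Igf1, 1.16 with an interval of 1.10 to 1.21.

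**Figure D4:**
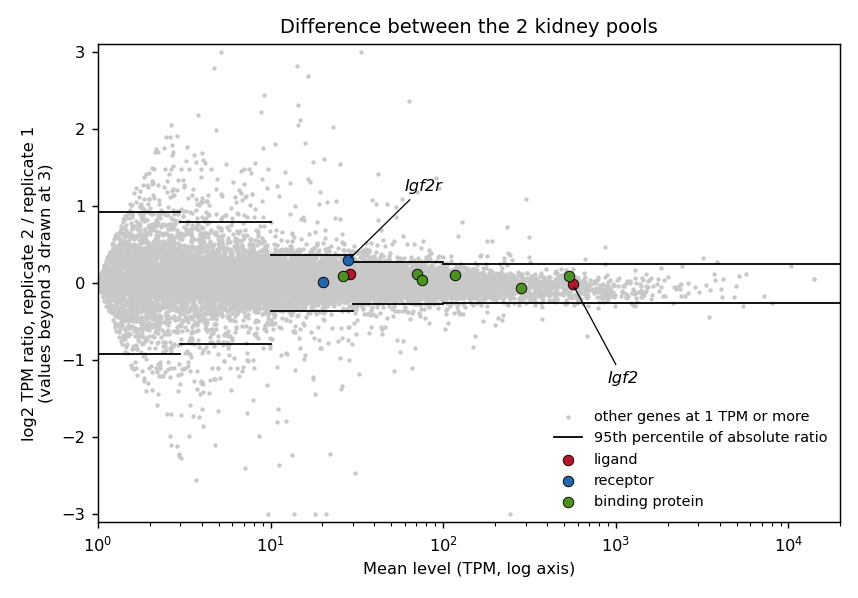
Log2 TPM ratio of replicate 2 over replicate 1 against mean TPM (log axis) for detected genes (grey) and the 10 members (coloured by role), with black steps at the 95th percentile of the absolute ratio in 5 bins of abundance. All 10 members lie inside the steps, and Igf2r at 0.30 lies closest to its limit of 0.37.

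Markers of kidney cell types were present in both pools. Most of their lists were level between the pools, while the mesangium and smooth muscle list and several lists of other tissues were not. The nephron progenitor list summed to 245 and 239 TPM in replicates 1 and 2, early nephron to 179 and 176, podocyte to 109 and 115, proximal tubule to 111 and 122, loop of Henle to 37.7 and 33.5, ureteric tree to 271 and 238, stroma to 1382 and 1474, endothelium to 179 and 189, and macrophage to 31.4 and 36.2. Within these lists only Dcn (stroma, higher in replicate 2) and Calb1 (ureteric tree, lower in replicate 2) passed the limit. Higher in replicate 2, against 2.8% of detected genes, were 4 of 4 adrenal cortex markers (36.8 and 122 TPM in sum), 5 of 5 adrenal medulla and nerve markers (27.7 and 120), 5 of 5 liver markers (211 and 416), 4 of 4 mesangium and smooth muscle markers (442 and 772) and 2 of 3 red cell markers (68.1 and 86.9). Lower in replicate 2, against 2.21% of detected genes, were 5 of 5 skeletal muscle markers (295 and 160), 1 of 3 cartilage markers (23.6 and 15.9) and 1 of 3 gut markers (51.0 and 10.5). The gut marker was Tff3, with 40.7 and 1.15 TPM in replicates 1 and 2, while Vil1 had 10.1 and 9.34 TPM and Cdx2 0.21 and 0 TPM. Over all lists the ratio of summed TPM, replicate 2 over replicate 1, ran from 0.206 for gut epithelium to 4.35 for adrenal medulla and nerve. For the 10 IGF genes it ran from 0.959 to 1.23. The part of other tissues in the IGF values was not tested, and these ratios do not measure it.

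**Figure D5:**
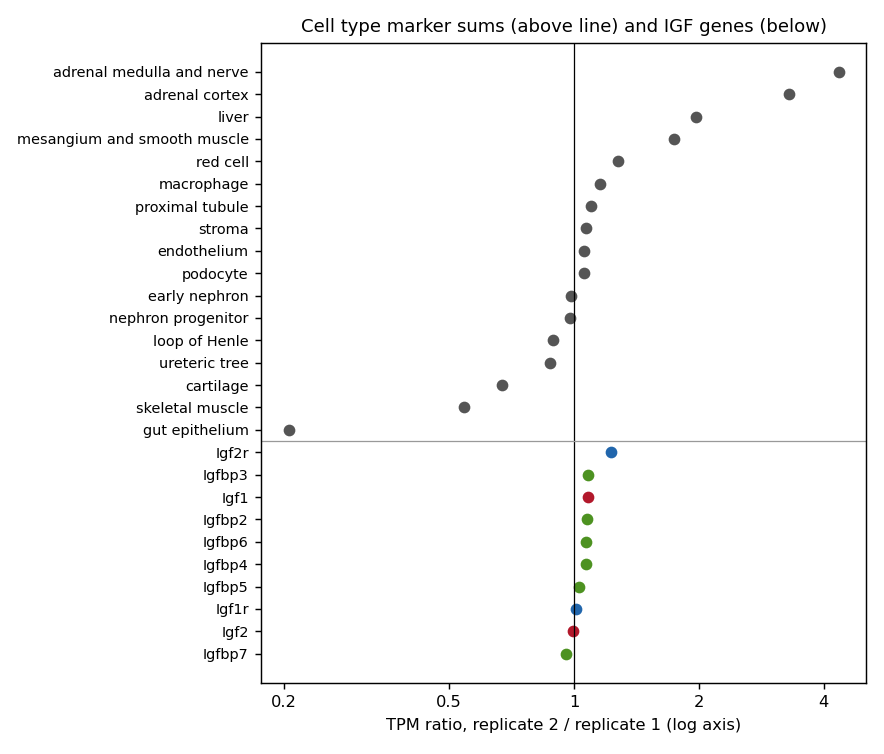
TPM ratio of replicate 2 over replicate 1 on a log axis for summed cell type marker lists (above the line) and for the 10 IGF genes (below it, coloured by role). Marker sums range from 0.206 for gut epithelium, where only Tff3 passed the limit, to 4.35 for adrenal medulla and nerve, and the IGF genes from 0.959 to 1.23.

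Around the members, 55 listed genes of the IGF pathway were measured, and 46 of them were detected in both libraries, against 34.9% of all mouse genes and 62.3% of protein-coding genes. None of the 46 was higher in replicate 2, against 2.8% of detected genes, and 1 was lower, against 2.21%. That gene was Kazald1, an IGFBP-domain relative, with 16.6 and 10.8 TPM in replicates 1 and 2 and a log2 ratio of -0.62 against a limit of 0.37.

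Of the insulin list, 1 of 4 genes was detected. Insr, the insulin receptor that also binds IGF2 in its fetal isoform, had 28.1 TPM in both libraries, and its relative Insrr had 0.99 and 1.21 TPM. Ins2, which lies 11839 bases from Igf2, had 1 and 4 counts, and Ins1 had 0 counts in both libraries, which allows up to 3 counts per library. Both further carriers were detected at low levels. Igfbp1 had 4.61 and 6.75 TPM in replicates 1 and 2, and Igfals, which joins IGFBP3 in the blood, had 1.16 and 1.07 TPM.

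Of the 10 IGFBP-domain relatives, 8 were detected, led by Ccn1, a matricellular protein, at 56.1 and 54.7 TPM in replicates 1 and 2. Ccn4 followed at 17.2 and 13.6 TPM. Igfbpl1 at 0.090 and 0.060 TPM and Ccn5 at 0.86 and 0.51 TPM were below the detection threshold. Of the 9 proteases and regulators, 8 were detected. Ctsd, a lysosomal protease, had 245.2 and 256.8 TPM, the matrix protease Mmp2 had 87.7 and 95.5 TPM, and the proprotein convertase Furin had 10.59 and 10.96 TPM. Pappa2, which cleaves IGFBP3 and IGFBP5, was below the threshold at 0.69 and 0.58 TPM.

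Of 22 adaptors and kinases, 21 were detected. Grb10, an imprinted adaptor that dampens signalling from the insulin and IGF1 receptors, led at 319.8 and 331.6 TPM in replicates 1 and 2. The kinase Akt2 had 80.1 and 86.1 TPM and the adaptor Shc1 had 79.4 and 85.3 TPM. Irs4 was the only undetected member of the list, at 0.10 and 0.14 TPM.

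Of 8 RNAs and RNA-binding proteins tied to Igf2 or Igf2r, 6 were detected. H19, the imprinted RNA 72622 bases from Igf2 that is transcribed from the maternal copy, had 352.0 and 384.3 TPM in replicates 1 and 2. Ctcf, the factor that insulates Igf2 on the maternal copy, had 108.6 and 107.7 TPM, and Igf2bp2, an RNA-binding protein of Igf2 transcripts, had 79.5 and 82.8 TPM. Igf2os, which overlaps Igf2 by 7124 bases on the other strand, had 0.98 and 0.95 TPM, and Lin28b had 0.60 and 0.59 TPM. As strand use is not given, it is not known whether reads of Igf2 and Igf2os were told apart in their overlap.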

How the data were processed

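Total RNA-seq tables of 2 libraries of 1 group were used. Reads were aligned to mm10 and quantified per gene and transcript with GENCODE M4, per the text the submitters placed beside the tables. Not given in the sources used here are the aligner, the quantifier and any use of strand. Per the file headers, the authors deposited expected counts (estimated reads, shared among matching features), TPM (adjusted for length, scaled to a fixed sum over all features), FPKM (used only as an alternative) and each transcript's percent of its gene. Spike-in control RNAs were among these features and held 5.78% and 7.34% of TPM in replicates 1 and 2. They were also part of the total counts behind the count ratios. Symbols and coordinates came from GENCODE M21, which matched 42462 genes (98.0%).

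The members, the lists and the rules were chosen with earlier results of these data known. Every member is named, with the 3 highest genes of each pathway list and those under 1 TPM in both libraries; Kazald1 is among them, while Dcn, Calb1, Tff3, Vil1 and Cdx2 were chosen after their values were seen. No p is given: an exact paired test over 2 libraries cannot go below 0.5. The labels call the libraries biological replicates. Replicate error was taken over genes at 1 TPM or more in both libraries as the 95th percentile of the log2 ratio without its sign, in bins with edges at 1, 3, 10, 30 and 100 TPM. Transcript shares were held to the same percentile, for mean shares of 5% or more in genes with several transcripts. The calculation of the rules was checked on simulated data with planted differences, which does not test how well the rules suit these libraries. Counting intervals and the floor of 3 counts ignore that reads without molecular identifiers are not independent. Alternatives used FPKM, the posterior mean TPM, edgeR 4.0.16 TMM factors and DESeq2 1.42.0 size factors. Python 3.11.15, numpy 2.4.6, pandas 2.3.3 and scipy 1.17.1 were used. No column of another sample was present.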

Additional observations from a re-analysis of the deposited data

How the results depend on the processing

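All 10 members were detected at 0.5 and at 5 TPM, with FPKM, posterior mean or rescaled TPM, and in each library alone (10 to 10), and 37 to 51 of the 55 pathway genes were, with 46 to 47 when a library was left out. The count of members that differed between the pools was 1 (Igf2r) in place of 0 after rescaling TPM over nuclear genes and 0 under the other alternatives. With that rescaling the Igf2r mean crossed the bin edge at 30 TPM, to a lower limit. Transcript shares that differed numbered 0 at the 99th percentile and 2 (Igf2-203 and Igf2-208) with no filter on low shares. Pairs that differed numbered 37 to 40, and 38 to 40 when a library was left out. With counts per kilobase of the longest protein-coding transcript the log2 level differences reversed beyond replicate error for Igf2 against Igfbp4 (-0.98) and Igfbp7 (-0.71) and for Igf1 against Igf2r (-0.35). Among pairs that differed by gene TPM, the sign also changed, without passing replicate error in both libraries, for Igf1 against Igf1r on that scale (-0.015). The same held for Igfbp4 against Igfbp7 with protein-coding TPM alone (-0.14). Some pairs that did not differ by gene TPM also changed sign without passing in both libraries. Examples were Igf1 against Igfbp6 with counts per kilobase (-0.27, limit 0.25) and Igf2r against Igfbp6 with protein-coding TPM (-0.035). Igfbp4 against Igfbp7 no longer passed in both libraries with counts per kilobase (0.27). The cause was not tested. Igf1 against Igf1r no longer differed at the 99th percentile or with both limits combined. No paired analysis was possible because there is only 1 group. Shares of transcripts with few bases of their own and of low-count forms are limited by how reads were shared out, and 2 libraries limit the error estimate to 1 degree of freedom.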
